A study of Mus musculus with 12 samples.

Results

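The genes described here are the chromosomal neighbours of Sema4b in a mouse knockout study of the injured cortex. They are 38 listed genes with starts within about 2 Mb of the Sema4b start on GRCm38 chromosome 7, out of 20776 genes in the deposited tables. The list was made by position and name, with earlier results of these data known, and leaves out other genes of the interval. Of the 38, 25 start before Sema4b in chromosome coordinates, the farthest (Ntrk3) at 1.45 Mb, and 13 start after it, the farthest (Iqgap1) at 0.639 Mb. The mice were Sema4B-/- (knockout) or Sema4B+/- (heterozygous), so the controls also carried 1 altered copy, and no mouse with 2 intact copies is among the libraries analysed here. All had a cortical injury. A square of 3 by 3 mm around the wound was taken 12 h later and dissociated, and cells were isolated by immunopanning, in which cells bind to antibody-coated dishes. Cells held on an ACSA-2 dish formed the astrocyte fraction, and cells held on a secondary-antibody dish and a CD45 dish formed the immune fraction. Each of the 4 groups had 3 RNA-seq libraries, named here by the number in their column head: astrocyte knockout 8, 10 and 12, astrocyte heterozygote 2, 4 and 6, immune knockout 7, 9 and 11, and immune heterozygote 1, 3 and 5. How the Sema4b allele was made, the strain, and the age of the mice are not given in the sources used here.

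Genes close to a targeted locus are inherited together with it, so animals selected for the altered allele also share the chromosome segment around it. For this reason the neighbours of a targeted gene are commonly looked at one by one in knockout comparisons. Sema4b itself encodes a transmembrane semaphorin, a class of guidance molecules that act through plexin receptors. Its neighbours have varied functions. They include a receptor and a kinase (Ntrk3, Fes), enzymes of mitochondria and metabolism (Idh2, Polg, Hddc3, Gdpgp1), mitochondrial ribosomal proteins (Mrps11, Mrpl46), secretory pathway enzymes (Furin, Man2a2), DNA repair proteins (Blm, Fanci) and secreted or matrix proteins (Mfge8, Acan, Hapln3).

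The libraries held 11111965 to 15993564 reads, so 3 reads correspond to 0.188 to 0.270 CPM (read counts scaled to the library total). Astrocyte markers (10 genes) summed to 20450 to 31834 CPM in astrocyte knockout libraries and 22841 to 26332 CPM in astrocyte heterozygous libraries, against 403 to 1097 CPM in immune knockout and 558 to 677 CPM in immune heterozygous libraries. Microglia markers (10 genes) summed to 6410 to 9620 CPM in immune knockout and 11021 to 13430 CPM in immune heterozygous libraries, against at most 470.5 CPM in any astrocyte library. The immune libraries of the 2 genotypes also differed in other markers. All 12 neuron markers had a positive log2 fold change there and all 8 neutrophil and all 8 monocyte and macrophage markers a negative one. The sums were 5252 to 8999 against 2977 to 5137 CPM for neurons and 697 to 1671 against 1424 to 2907 CPM for neutrophils, knockout against heterozygote. Endothelial and mural markers (9 genes) summed to 905 to 1370 CPM in astrocyte knockout and 984 to 1851 CPM in astrocyte heterozygous libraries, with 0 of 9 positive (median log2 fold change -0.42). In the immune fraction they summed to 40.7 to 436 CPM in knockout and 83.6 to 95.2 CPM in heterozygous libraries, with 9 of 9 positive (median 1.49). The part of these markers in the results below was not tested. No marker in these lists was at 0 in every library of a fraction. In bulk libraries such as these, fewer cells of a type and less RNA per cell cannot be told apart.

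The marker sums above and the levels below are CPM on the reads in tested genes, scaled by TMM (edgeR's trimmed-mean scaling). They may be compared between libraries but not between genes of different length. Log2 fold changes are knockout over heterozygote with their standard error (SE), unless stated otherwise. They come from edgeR's quasi-likelihood test fitted over all genes of a fraction, with Benjamini-Hochberg adjustment over all of them. Of the 38 neighbours, 34 had enough reads to be tested in the astrocyte fraction and 31 in the immune fraction, with 31 tested in both. Ticrr (start of DNA replication), Plin1 (a lipid droplet coat protein of fat cells) and the mesoderm transcription factors Mesp1 and Mesp2 were tested in neither. Mesp2 reached at most 0.782 CPM and the other 3 at most 0.463 CPM in any of the 12 libraries. Mesp1 had 0 reads in 5 libraries. Hapln3, Rhcg and Wdr93 were tested in the astrocyte fraction alone, because they were under the read filter in immune libraries.

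Sema4b (ENSMUSG00000030539, chromosome 7, 80186841 to 80226527, plus strand) is the targeted gene. Astrocyte knockout libraries 8, 10 and 12 had 41.9, 26.7 and 53.7 CPM, and astrocyte heterozygous libraries 2, 4 and 6 had 64.3, 103 and 57.3 CPM. The groups did not overlap, but knockout library 12 lay close to heterozygous library 6. Knockout over heterozygote gave -0.88 ± 0.29 (edgeR adjusted p = 0.930), and leaving out each library gave -1.17 (without 12) to -0.58 (without 4). Immune knockout libraries 7, 9 and 11 had 5.83, 2.30 and 1.30 CPM, and immune heterozygous libraries 1, 3 and 5 had 8.81, 6.49 and 8.43 CPM, again without overlap. There the log2 fold change was -1.32 ± 0.48 (edgeR adjusted p = 0.270), and leaving out each library gave -2.13 (without 7) to -0.95 (without 11). Sema4b was thus lower in every knockout library than in any heterozygous library of its fraction, and knockout libraries still held reads of it. Which exons these reads came from cannot be read from gene counts. Groups did not overlap for 11.8% of all genes in astrocytes and 19.9% in the immune fraction. By edgeR p, Sema4b ranked 108th of 15468 genes in astrocytes and 1194th of 15648 in the immune fraction. Its separation goes with the genotype labels but cannot verify them.

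No neighbour passed the adjusted threshold of 0.05 between genotypes in either fraction by edgeR, and neither did any other gene, so the background was 0% in both. At an unadjusted p under 0.05, 3 of 34 neighbours (8.82%) were below the threshold in the astrocyte fraction, against 3.83% of all 15468 genes tested. In immune libraries the count was 4 of 31 (12.9%), against 14.6% of 15648 genes. The astrocyte count of 3 is too small to set the neighbours apart, and the immune share is near its background. Limma-voom also called 0 neighbours and 0% of genes in both fractions. DESeq2 called 0 in the astrocyte fraction, where it called 0.00646% of all genes, and 1 (Zfp710) in the immune fraction, where it called 2.85% of all genes. The authors' deposited table listed 0 of the 38 neighbours with an adjusted p of at most 0.05 in either fraction, against 0.00481% of its genes for astrocytes and 0.895% for immune cells.

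The neighbours as a group were centred near no difference. Their median log2 fold change was -0.0085 in the astrocyte fraction (all genes 0.0036) and -0.07 in the immune fraction (all genes -0.0037). Signs were mixed, with 16 of 34 positive in astrocytes (47.1%, against 50.7% of all genes) and 13 of 31 in immune libraries (41.9%, against 49.6% of all genes). The median absolute log2 fold change was 0.17 for neighbours and 0.13 for all genes in the astrocyte fraction, and 0.23 for neighbours and 0.28 for all genes in the immune fraction. Precision differed between the fractions. The interval of 2 SE around the estimate lay within ±1 on the log2 scale for 29 of 34 neighbours in astrocytes and 19 of 31 in immune libraries. It lay within ±0.5 for 19 and 4 of them.

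**Figure D1:**
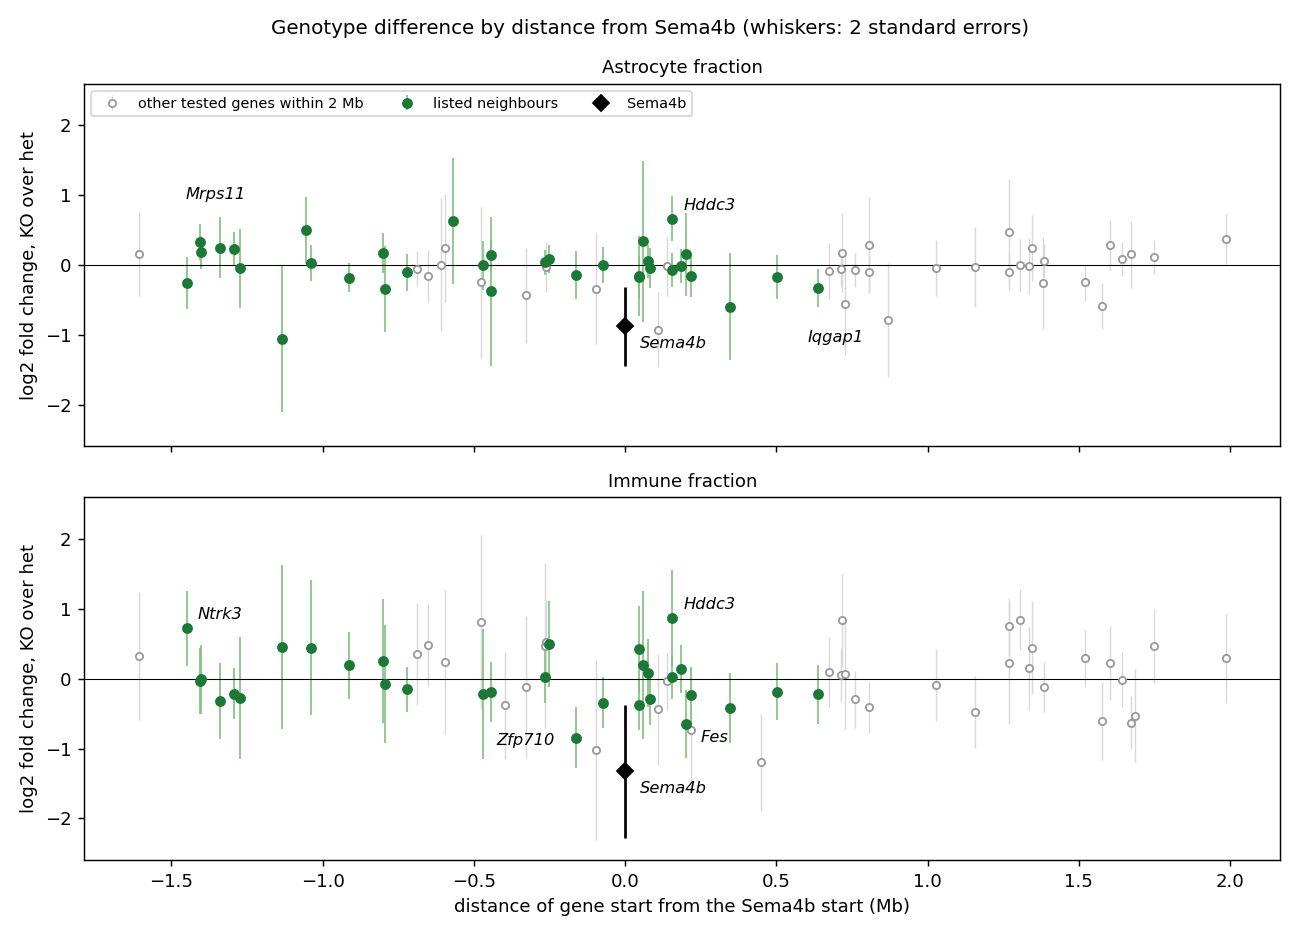
Log2 fold change, knockout (KO) over heterozygote (het), of each tested gene within 2 Mb of Sema4b (vertical axis) against the distance of its start from the Sema4b start in Mb (horizontal axis), with the astrocyte fraction above the immune fraction. Filled points are listed neighbours, open points other genes, the diamond is Sema4b and whiskers are 2 SE; neighbours lie on both sides of 0 along the interval, with estimates from -1.06 (Acan) to 0.67 (Hddc3) in astrocytes and from -0.84 (Zfp710) to 0.87 (Hddc3) in immune libraries.

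Hddc3 stood out among the neighbours in that its unadjusted p was under 0.05 with the same sign in both fractions. It encodes a relative of the bacterial enzymes that break down the stringent-response nucleotides, and its human protein (MESH1) removes a phosphate from NADPH. The gene (ENSMUSG00000030532, chromosome 7, 80343104 to 80350547, plus strand) starts 156 kb after Sema4b. Astrocyte knockout libraries had 21.9, 24.3 and 25.2 CPM, and astrocyte heterozygous libraries had 17.4, 11.8 and 15.9 CPM. Every knockout library was above every heterozygous one. The log2 fold change was 0.67 ± 0.16 (1.59-fold), with an unadjusted p of 0.00319 and an adjusted p of 0.930 by edgeR, the 13th lowest p of 15468 genes. Leaving out each library in turn gave 0.52 to 0.75.

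Among immune libraries, Hddc3 had 9.93, 13.7 and 23.0 CPM in knockout libraries 7, 9 and 11 and 5.96, 8.65 and 10.9 CPM in heterozygous libraries 1, 3 and 5. The groups overlapped, since knockout library 7 lay below heterozygous library 5, and library 11 was the highest. This gave a log2 fold change of 0.87 ± 0.34 (edgeR unadjusted p = 0.0309, adjusted p = 0.292). Without library 11 it was 0.47 (edgeR unadjusted p = 0.150), and without heterozygous library 1 it was 0.67 (edgeR unadjusted p = 0.103). Without heterozygous library 3 it was 0.90 (edgeR unadjusted p = 0.0656). The unadjusted p in the immune fraction thus did not depend on library 11 alone. Library 11 also had the highest neuron marker sum (8999 CPM) and the lowest microglia marker sum (6410 CPM) of the immune libraries, and their part in the result was not tested. The authors' deposited table gave Hddc3 a log2 fold change of 0.671 in astrocytes (p = 0.000705, adjusted p = 1) and 0.898 in immune cells (p = 0.0125, adjusted p = 0.22).

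Of the 31 neighbours tested in both fractions, Hddc3 was the 1 neighbour (3.23%) with an unadjusted p under 0.05 and the same sign in both, against 28 of 14413 genes (0.194%), of which 5 (0.0347%) were higher in knockouts. The genotype effect of Hddc3 did not differ detectably between fractions (astrocyte minus immune -0.15 ± 0.39 on the log2 scale, edgeR adjusted p = 0.891). The labels do not say whether the astrocyte and immune libraries came from the same mice, so the 2 fractions may not be independent. Most of its exon length lies over other genes. Of its 3775 exon bases, 427 are shared with Man2a2 (a Golgi mannosidase) and 2454 with the unclassified transcript Gm18310, both on the opposite strand. Whether counting used strand is not given in the sources used here. Gm18310 had at most 0.624 CPM in any library, a count that may itself depend on how shared reads were assigned. Man2a2 had a log2 fold change of -0.01 ± 0.12 in astrocytes and 0.14 ± 0.17 in immune libraries.

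The start regions of Sema4b and Hddc3 are shown for comparison because these are the targeted gene and the neighbour with the same sign in both fractions, and that of Cib1 because Cib1 shares its start region with Gdpgp1. The RefSeq windows (GRCm38.p6) run from 250 bases before to 50 bases after the annotated start, 5′ to 3′ on the strand of the gene. The Sema4b window is chr7:80186620-80186919 on the plus strand, the Hddc3 window is chr7:80342887-80343186 on the plus strand, and the Cib1 window is chr7:80232756-80233055 on the minus strand. Capitals mark matches, on either strand, to 6 motifs searched as letters: the GC box GGGCGG, the ETS motif CCGGAAG, the CCAAT box CCAAT, the E-box CACGTG, the TATA box TATAAA and the CRE TGACGTCA.
Sema4b: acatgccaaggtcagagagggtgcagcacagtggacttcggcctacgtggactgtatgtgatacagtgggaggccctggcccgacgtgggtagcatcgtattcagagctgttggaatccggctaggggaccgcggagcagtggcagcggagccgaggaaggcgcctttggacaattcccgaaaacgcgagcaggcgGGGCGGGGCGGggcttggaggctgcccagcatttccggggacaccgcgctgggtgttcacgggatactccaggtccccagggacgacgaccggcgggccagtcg
Hddc3: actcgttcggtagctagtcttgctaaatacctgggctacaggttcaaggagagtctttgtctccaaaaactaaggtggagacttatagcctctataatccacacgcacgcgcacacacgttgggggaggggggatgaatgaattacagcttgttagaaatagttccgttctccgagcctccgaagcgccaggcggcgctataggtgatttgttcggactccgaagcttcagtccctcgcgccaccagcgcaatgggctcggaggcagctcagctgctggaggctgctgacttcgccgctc
Cib1: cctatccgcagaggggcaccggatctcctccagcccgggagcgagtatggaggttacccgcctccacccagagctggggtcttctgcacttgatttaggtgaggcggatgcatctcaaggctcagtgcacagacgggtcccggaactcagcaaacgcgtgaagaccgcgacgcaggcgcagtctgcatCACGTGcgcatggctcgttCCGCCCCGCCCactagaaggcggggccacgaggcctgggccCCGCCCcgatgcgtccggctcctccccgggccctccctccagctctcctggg

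The Sema4b window held 2 overlapping GC boxes and a GC content of 65.3%. The Cib1 window held 3 GC boxes, of which 2 overlap, and 1 E-box, at a GC content of 67.7%. No match to the 6 motifs was found in the Hddc3 window (GC content 55.0%), which says only that these letters are not in this window. A GC box was present in 35.66% of all 32851 RefSeq windows of this length, an E-box in 7.15%, a CCAAT box in 37.41%, a TATA box in 13.62%, an ETS motif in 8.86% and a CRE in 1.79%. Among 40 windows of the neighbours (a gene can have more than 1), 28 held a GC box and 3 an E-box. These matches describe the letters and are not evidence of binding.

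Besides Hddc3, 2 neighbours had an unadjusted p under 0.05 in the astrocyte fraction. Mrps11 encodes a protein of the small subunit of the mitochondrial ribosome. Its astrocyte level was 19.9, 22.6 and 22.3 CPM in knockout libraries 8, 10 and 12 and 18.3, 15.1 and 18.1 CPM in heterozygous libraries 2, 4 and 6. The groups did not overlap, although knockout library 8 was only slightly above heterozygous library 2. Its log2 fold change was 0.33 ± 0.13 (edgeR unadjusted p = 0.0340, adjusted p = 0.930), and in the immune fraction it was -0.03 ± 0.24. Mrps11 is arranged head to head with Mrpl46 (large subunit of the mitochondrial ribosome), and the 2 genes share 173 exon bases on opposite strands, so reads there cannot be assigned without strand. Mrpl46 was also without overlap in astrocytes, at 21.1, 24.1 and 21.7 CPM in knockouts and 20.3, 19.3 and 19.4 CPM in heterozygotes, with a log2 fold change of 0.18 ± 0.11 (edgeR unadjusted p = 0.154).

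Iqgap1, a scaffold protein that joins the actin skeleton to small GTPases, had 56.7, 43.2 and 45.4 CPM in astrocyte knockout libraries and 65.6, 52.9 and 64.3 CPM in astrocyte heterozygous libraries. The groups overlapped, since knockout library 8 was above heterozygous library 4. In log2 terms the difference was -0.33 ± 0.14 in astrocytes (edgeR unadjusted p = 0.0415, adjusted p = 0.930) and -0.22 ± 0.21 in the immune fraction. Across the astrocyte fraction, 4 of 34 neighbours (11.8%) had groups that did not overlap, which equals the background of 11.8% of all genes. These were Hddc3, Mrps11, Mrpl46 and Arpin, and all 4 were higher in knockouts (11.8%, against 7.3% of all genes). Acan, which encodes the matrix proteoglycan aggrecan, had the lowest astrocyte log2 fold change of the neighbours (-1.06 ± 0.52, edgeR unadjusted p = 0.0748). It rested on 0.335 to 0.925 CPM in knockout and 0.777 to 2.09 CPM in heterozygous astrocyte libraries.

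The immune fraction had 3 further neighbours with an unadjusted p under 0.05: Zfp710, Fes and Ntrk3. Zfp710, a zinc finger protein gene that starts 162 kb before Sema4b, had 50.9, 59.3 and 42.3 CPM in immune knockout libraries and 80.3, 75.3 and 118 CPM in immune heterozygous libraries. The groups did not overlap, and heterozygous library 5 was the highest. A log2 fold change of -0.84 ± 0.22 was found (edgeR unadjusted p = 0.00359, adjusted p = 0.227). DESeq2 gave -0.83 with an adjusted p of 0.0341, and no other alternative run called it. Without library 5 the edgeR log2 fold change was -0.62. In astrocytes Zfp710 had 26.7, 23.5 and 35.6 CPM in knockouts and 35.8, 31.1 and 27.7 CPM in heterozygotes (log2 fold change -0.14 ± 0.17).

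Fes encodes a tyrosine kinase abundant in myeloid cells. Immune knockout libraries had 101, 120 and 89.1 CPM and immune heterozygous libraries had 162, 111 and 212 CPM. The groups overlapped, since knockout library 9 was above heterozygous library 3, and the log2 fold change was -0.65 ± 0.24 (edgeR unadjusted p = 0.0262, adjusted p = 0.283). Without heterozygous library 5 it was -0.40 (edgeR unadjusted p = 0.129), and the unadjusted p was also over 0.05 without knockout library 7 (0.0657) or 11 (0.0658). Beside this, the microglia, neutrophil and monocyte marker lists had median log2 fold changes of -0.51, -0.86 and -0.78 in the same libraries, with 0 of 10, 0 of 8 and 0 of 8 genes positive. Monocyte and macrophage markers summed to 148 to 248 CPM in knockout and 327 to 386 CPM in heterozygous libraries. The part of these cells in the Fes and Zfp710 results was not tested.

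Ntrk3 encodes TrkC, the receptor for neurotrophin-3, and is expressed by many neurons. Immune knockout libraries 7, 9 and 11 had 125, 67.7 and 73.2 CPM and immune heterozygous libraries 1, 3 and 5 had 52.0, 66.9 and 41.9 CPM. The groups did not overlap, but knockout library 9 and heterozygous library 3 nearly met. Here the log2 fold change was 0.73 ± 0.27 (edgeR unadjusted p = 0.0235, adjusted p = 0.275), and without library 7 it was 0.41 (edgeR unadjusted p = 0.101). Without heterozygous library 1 or 5 the unadjusted edgeR p of Ntrk3 also missed the threshold (0.0561 and 0.0919). The neuron marker list moved the same way, with 12 of 12 genes positive and a median log2 fold change of 0.58. The order of the libraries differed, with neuron marker sums of 5875, 5252 and 8999 CPM in knockout libraries 7, 9 and 11. Library 7 was thus the highest of them for Ntrk3 and library 11 for the markers. The part of these markers in the result was not tested. Astrocyte libraries had 40.4, 57.5 and 36.5 CPM in knockouts and 46.4, 61.5 and 52.6 CPM in heterozygotes (log2 fold change -0.26 ± 0.18), where 4 of 12 neuron markers were positive.

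**Figure D2:**
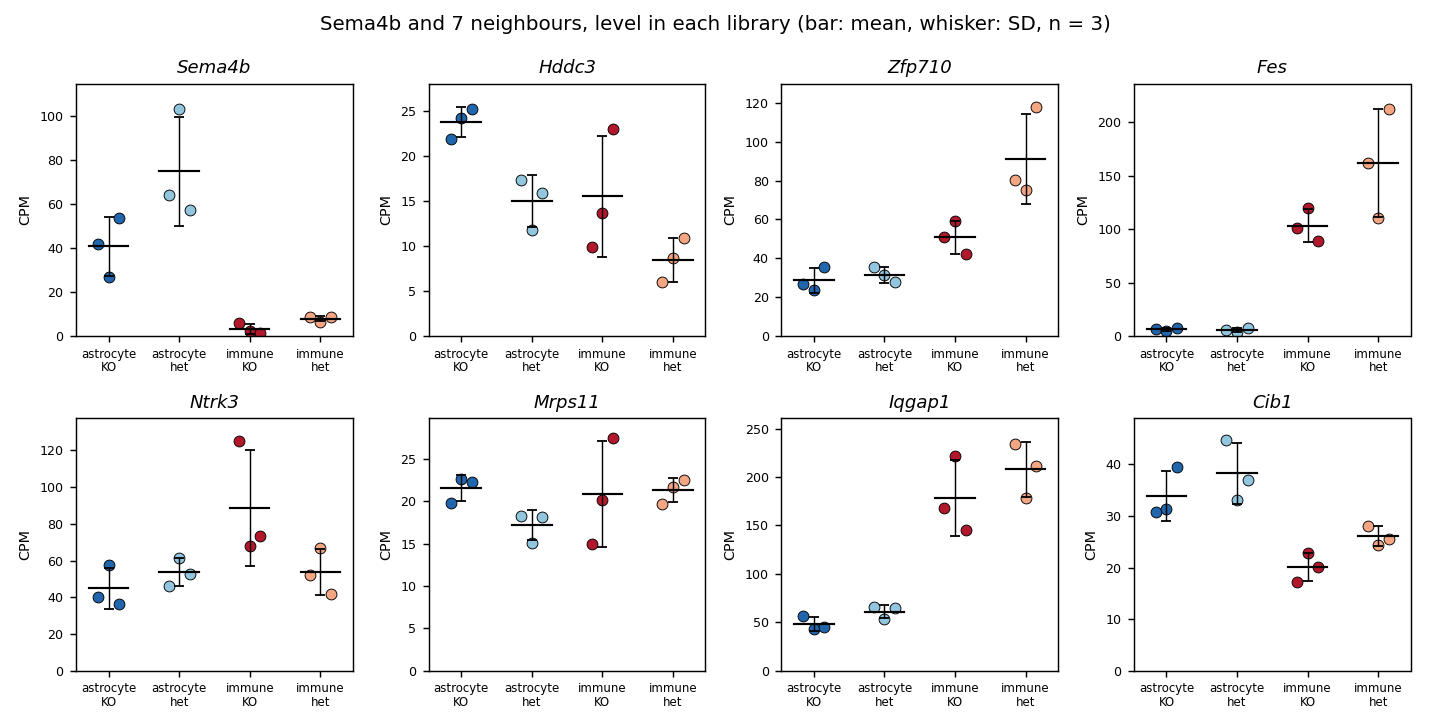
TMM-scaled CPM (vertical axes, linear and from 0) of Sema4b and of 7 neighbours (the 6 with an unadjusted p under 0.05 and Cib1), in each of the 12 libraries, with the 4 groups of fraction and genotype along the horizontal axis (KO, knockout; het, heterozygote). Points are single libraries, bars are group means and whiskers are SD (n = 3); Sema4b is lower in every knockout library than in the heterozygotes of its fraction, Hddc3 is separated by genotype in astrocytes (21.9 to 25.2 against 11.8 to 17.4 CPM) and overlaps in the immune fraction.

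The genes nearest to Sema4b had small differences in astrocytes. Cib1 (a calcium and integrin binding protein, 46.0 kb after the Sema4b start) had 30.8, 31.3 and 39.4 CPM in astrocyte knockout libraries and 44.8, 33.1 and 37.0 CPM in astrocyte heterozygous libraries, with overlap and a log2 fold change of -0.18 ± 0.15. Idh2, the mitochondrial NADP-dependent isocitrate dehydrogenase 71.4 kb before Sema4b, had 241, 234 and 302 CPM in knockouts and 282, 255 and 239 CPM in heterozygotes. Its log2 fold change was 0.0022 ± 0.13, with an interval of 2 SE from -0.26 to 0.26. Ngrn (a mitochondrial protein gene) and Ap3s2 (a subunit of the AP-3 sorting complex) were at 0.05 ± 0.12 and 0.04 ± 0.09. Arpin, whose protein inhibits the Arp2/3 actin complex, was at 0.09 ± 0.10, and Gdpgp1, a GDP-glucose phosphorylase, at -0.15 ± 0.29. Ttll13, a tubulin glutamylase gene, had at most 0.803 CPM in astrocytes and a wide interval, from -0.81 to 1.49.

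Among immune libraries the nearest genes spread more. Cib1 had 17.3, 22.7 and 20.1 CPM in knockouts and 28.1, 24.3 and 25.6 CPM in heterozygotes, without overlap, and a log2 fold change of -0.38 ± 0.18 (edgeR unadjusted p = 0.0646). Idh2 had 65.9, 73.7 and 52.7 CPM in knockouts and 92.7, 75.5 and 75.1 CPM in heterozygotes, also without overlap, and a log2 fold change of -0.34 ± 0.18 (edgeR unadjusted p = 0.0945). Without library 11 the Idh2 value was -0.22. Gdpgp1 was at 0.42 ± 0.31 and Arpin at 0.50 ± 0.31, with overlapping groups. Without library 11 these were 0.11 and 0.24, and without library 1 Arpin was at 0.31. Ngrn (0.08 ± 0.24), Ap3s2 (0.03 ± 0.18) and Ttll13 (0.20 ± 0.53) were near 0 relative to their SE. In all, 7 of 31 neighbours (22.6%) had groups that did not overlap, against 19.9% of all genes. The 1 higher in knockouts (3.23%, against 10.6% of all genes) was Ntrk3. The 6 lower (19.4%, against 9.29%) were Zfp710, Idh2, Cib1, Vps33b (endosome trafficking), Blm (a RecQ helicase) and Pex11a (peroxisome division).

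Cib1 and Gdpgp1 start 52 bases apart on opposite strands, and their start windows overlap on the sequence printed above. Their estimates had the same sign in astrocytes (-0.18 ± 0.15 and -0.15 ± 0.29) and opposite signs in immune libraries (-0.38 ± 0.18 and 0.42 ± 0.31, with Gdpgp1 at 0.11 without library 11). Pex11a and Wdr93 (a WD repeat protein gene) start 32 bases apart. Pex11a had 36.2, 34.9 and 41.5 CPM in astrocyte knockouts and 35.4, 33.6 and 33.3 CPM in astrocyte heterozygotes, and Wdr93 at most 0.937 CPM in any of those libraries.

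Whether a neighbour's genotype difference differed between fractions was tested in 1 fit of all 12 libraries. The adjusted threshold was passed by 0 of 34 neighbours and by 0% of all 16880 genes by edgeR, and DESeq2 (0.0178% of all genes) and limma-voom (0%) also called 0 neighbours. At an unadjusted p under 0.05 there were 2 neighbours (5.88%), against 10.4% of all genes. Ntrk3 differed by -0.93 ± 0.35 (astrocyte minus immune, edgeR unadjusted p = 0.0201, adjusted p = 0.475) and Zfp710 by 0.76 ± 0.30 (unadjusted p = 0.0264, adjusted p = 0.475). Fes differed by 0.86 ± 0.40 (edgeR unadjusted p = 0.0516). For Mrps11 the value was 0.43 ± 0.27, and for Iqgap1 -0.05 ± 0.28.

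More neighbours differed between the cell fractions than between genotypes. Levels in the next paragraphs are CPM of the fit of all 12 libraries, whose scaling differs slightly from that of a single fraction, and log2 differences are astrocyte over immune. At an adjusted p under 0.05 by edgeR, 21 of 34 neighbours (61.8%) differed in knockouts, against 59.8% of all genes. Of these, 14 were higher in astrocyte libraries (41.2%, against 29% of all genes) and 7 lower (20.6%, against 30.7%). In heterozygotes 22 differed (64.7%, against 60.3%), 15 of them higher (44.1%, against 30%) and 7 lower (20.6%, against 30.3%). The same 19 were called with the same sign in both genotypes (55.9%, against 49.5% of all genes), 13 higher (38.2%, against 25.4%) and 6 lower (17.6%, against 24.2%). The share called was near that of all genes, with more of the neighbours on the astrocyte side. Mice shared between the astrocyte and immune libraries, if any, are not given in the labels and were not modelled.

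Mfge8, whose secreted product bridges dying cells to phagocytes, had the largest astrocyte excess of the neighbours. It had 1597, 1208 and 1561 CPM in astrocyte knockout libraries, against 51.7, 73.3 and 12.1 CPM in immune knockout libraries (log2 difference 4.99 ± 0.50). In heterozygotes it had 1430, 1382 and 1477 CPM in astrocyte libraries, against 30.2, 35.9 and 37.7 CPM in immune libraries (log2 difference 5.37 ± 0.51). Immune knockout library 11, the lowest for Mfge8, also had the lowest astrocyte marker sum (403 CPM) of the immune libraries, whose part in this was not tested. Rlbp1, the retinaldehyde-binding protein known from Müller glia, had 48.6 to 61.3 CPM in astrocyte knockouts and 1.45 to 4.28 CPM in immune knockouts (4.33 ± 0.33), with a difference of 4.37 ± 0.34 in heterozygotes. Hapln3, a hyaluronan link protein, had 8.04 to 11.3 CPM in astrocyte knockouts and 0.174 to 0.829 CPM in immune knockouts (4.19 ± 0.45). The immune values of Hapln3 are near the level of 3 reads.

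Among neighbours called in both genotypes, Arpin, Kif7 and Pex11a had the next largest mean difference over both. Arpin had 36.5 to 37.7 CPM in astrocyte knockouts and at most 8.76 CPM in immune knockouts (2.46 ± 0.20), and a difference of 2.82 ± 0.21 in heterozygotes. Kif7, a kinesin that regulates Hedgehog signalling in the primary cilium, differed by 2.64 ± 0.34 in knockouts and 2.37 ± 0.34 in heterozygotes, and Pex11a by 2.54 ± 0.14 and 2.16 ± 0.14. Kif7 shares 877 exon bases with the antisense transcript 9330171B17Rik and 51 with Ticrr, so part of its reads may be assigned differently with strand. Sema4b itself differed by 3.90 ± 0.46 in knockouts and 3.40 ± 0.43 in heterozygotes. Mfge8, Rlbp1, Hapln3, Arpin, Kif7, Pex11a and Sema4b each had a lower CPM in every immune library than in any astrocyte library. Rhcg (an ammonia transporter) differed by 2.87 ± 0.53 in knockouts and 1.62 ± 0.54 in heterozygotes, where its groups overlapped, and its immune values were near the level of 3 reads. Wdr93 differed by 2.75 ± 0.91 in heterozygotes (edgeR adjusted p = 0.0178) and was not called in knockouts (1.77 ± 0.81, edgeR adjusted p = 0.0745). Smaller astrocyte excesses in both genotypes were found for Idh2 (2.23 ± 0.19 in knockouts, 1.83 ± 0.19 in heterozygotes), Abhd2 (a lipid hydrolase), Cib1, Crtc3 (a CREB coactivator), Hddc3 (0.84 ± 0.27 in knockouts, 0.99 ± 0.28 in heterozygotes) and Ngrn.

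Genes lower in the astrocyte fraction were led by Fes. It had 7.30, 4.79 and 8.14 CPM in astrocyte knockout libraries, against 93.6, 112 and 79.4 CPM in immune knockout libraries (-3.82 ± 0.31). In heterozygotes it had 6.17, 3.94 and 7.99 CPM in astrocyte libraries, against 163, 104 and 199 CPM in immune libraries (-4.68 ± 0.32). Furin, the protease that matures precursors in the secretory pathway and lies next to Fes, had 36.4 to 55.7 CPM in astrocyte knockouts and 212 to 277 CPM in immune knockouts (-2.37 ± 0.21), with -2.52 ± 0.21 in heterozygotes. Iqgap1 had 44.8 to 60.8 CPM in astrocyte knockouts and 130 to 207 CPM in immune knockouts (-1.66 ± 0.20), with -1.62 ± 0.20 in heterozygotes.

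Isg20, Blm and Zfp710 were lower in astrocyte libraries by less. Isg20, an interferon-induced exonuclease gene, differed by -1.13 ± 0.42 in knockouts and -1.42 ± 0.42 in heterozygotes, Blm by -1.11 ± 0.32 and -0.98 ± 0.32, and Zfp710 by -0.61 ± 0.22 and -1.37 ± 0.22. Not all of these calls held when libraries were left out. In knockouts the Zfp710 difference missed the adjusted threshold without any one of libraries 7, 8, 9 and 10 (-0.61, -0.56, -0.47 and -0.47), and the Isg20 difference without any one of libraries 7, 9, 10 and 12 (-1.14, -0.63, -1.03 and -1.10). In heterozygotes the Isg20 call was lost without library 5 (-1.14) and the Blm call without library 6 (-0.80).

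**Figure D3:**
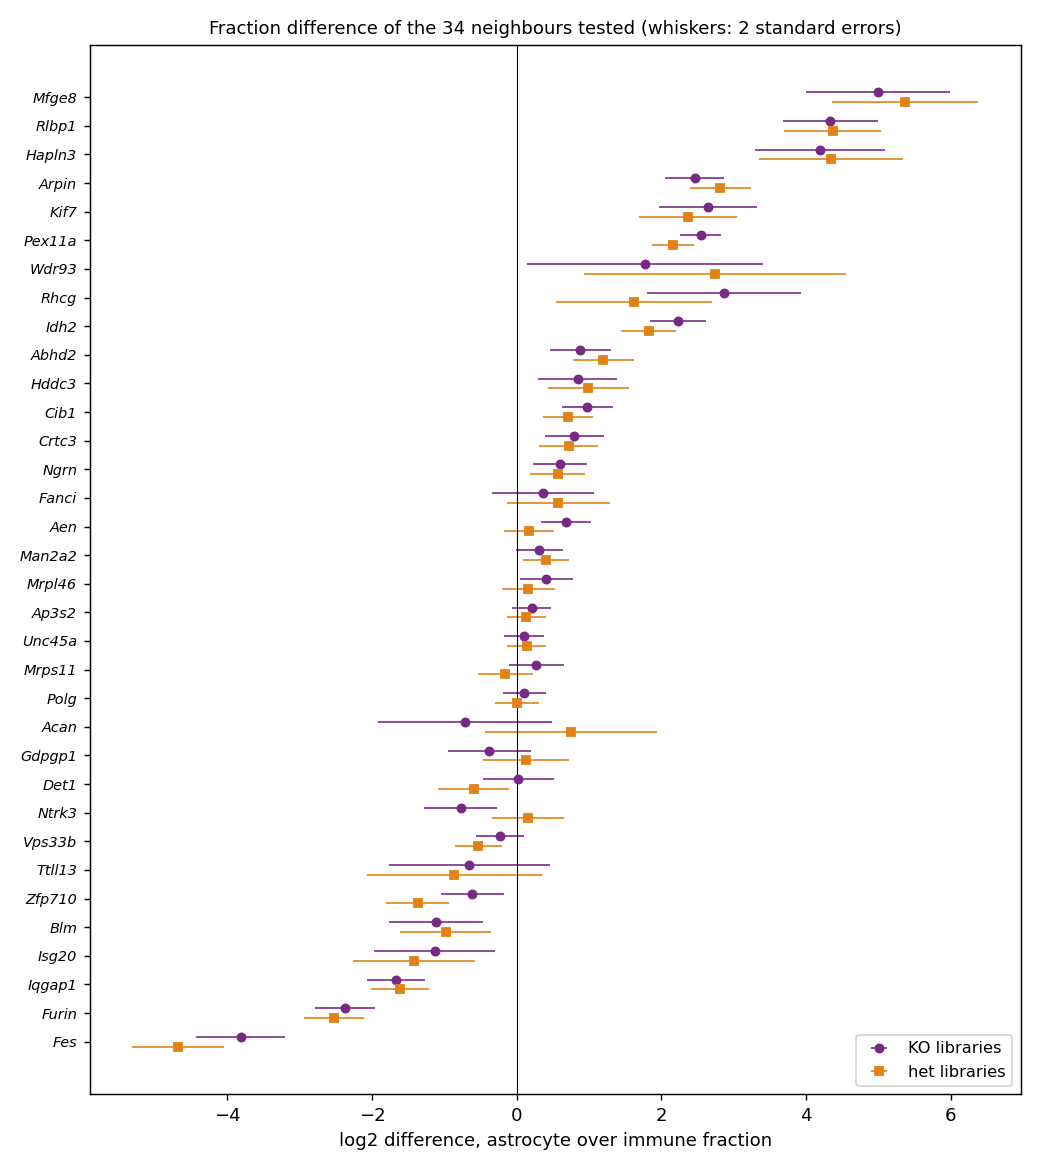
Log2 difference, astrocyte over immune fraction (horizontal axis), for each of the 34 neighbours tested in the fit of all 12 libraries, with knockout (KO) libraries above heterozygous (het) libraries in each row and bars of 2 SE. Values run from -4.68 (Fes in heterozygotes) to 5.37 (Mfge8 in heterozygotes), and Fes is lowest and Mfge8 highest in both genotypes.

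Corrected for exon length (CPM per kb of annotated exon), levels may be compared between genes. Mfge8 was the highest neighbour in astrocytes, at 310 ± 45.8 in knockouts and 305 ± 10.1 in heterozygotes (SD, n = 3), followed by Idh2 at 107 ± 17.5 and 107 ± 9.17. Ngrn came next at 21.9 ± 1.62 and 21.2 ± 1.63. Below it were Rlbp1 (19.2 ± 2.42 and 17.1 ± 2.71), Mrpl46 (16.7 ± 0.826 and 14.9 ± 0.469), Arpin (16.3 ± 0.270 and 15.4 ± 0.829) and Cib1 (15.7 ± 2.52 and 17.8 ± 2.78), whose order differed between knockouts and heterozygotes. Sema4b stood at 7.73 ± 2.72 in astrocyte knockouts and 14.2 ± 4.74 in astrocyte heterozygotes. In immune libraries Furin (27.2 ± 3.67 in knockouts, 33.6 ± 7.24 in heterozygotes), Idh2 (22.7 ± 4.26 and 30.1 ± 4.98) and Fes (18.7 ± 3.18 and 30.6 ± 9.51) led, and in heterozygotes their SDs overlapped. Hddc3 was at 6.72 ± 0.514 in astrocyte knockouts and 4.25 ± 0.813 in astrocyte heterozygotes, and at 3.75 ± 1.53 and 2.14 ± 0.561 in the immune groups. Annotated exon length is the union over all transcripts, so genes with long alternative ends are set lower. Bases shared with other genes, as in Hddc3, were not taken out of this length.

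The 38 listed genes are not all annotated genes of the interval. The tables held 55 other genes within 2 Mb of Sema4b, 23 of them protein coding, of which 35 were tested in astrocytes and 36 in the immune fraction. In astrocytes 2 of these had an unadjusted p under 0.05: Prc1, a protein of the central mitotic spindle 108 kb after Sema4b (log2 fold change -0.92 ± 0.27, edgeR unadjusted p = 0.00775, adjusted p = 0.930), and Fam103a1 (-0.58 ± 0.16, edgeR unadjusted p = 0.00671, adjusted p = 0.930). In immune libraries there were 5: Ap3b2 (0.85 ± 0.22), Nmb (0.84 ± 0.33), Cpeb1 (0.75 ± 0.20), Tm6sf1 (-0.63 ± 0.19) and the antisense transcript Gm15880 (-1.20 ± 0.34). Their edgeR adjusted p ran from 0.227 to 0.295. Ap3b2 encodes the neuronal AP-3 subunit. The part of the neuron marker difference given above in these results was not tested.

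The share of genes with an unadjusted p under 0.05 was also counted by distance from Sema4b, leaving out Sema4b itself. In astrocytes the share was 2 of 24 genes (8.33%) within 0.5 Mb, 1 of 19 (5.26%) from 0.5 to 1 Mb, 2 of 26 (7.69%) from 1 to 2 Mb, 1 of 21 (4.76%) from 2 to 5 Mb and 2 of 27 (7.41%) from 5 to 10 Mb. Farther along chromosome 7 it was 3 of 94 (3.19%) from 10 to 20 Mb and 34 of 992 (3.43%) over 20 Mb, against 3.83% of 14244 genes on other chromosomes. Each astrocyte bin within 10 Mb thus had a higher share than the farther bins, on 1 or 2 genes a bin. Another measure did not follow this order. Genes whose groups did not overlap made up 12.5%, 0%, 19.2%, 9.52% and 3.70% of those near bins, in order of distance. Farther out they made up 12.8% from 10 to 20 Mb, 12.3% over 20 Mb and 11.8% on other chromosomes. In immune libraries the share with an unadjusted p under 0.05 was 4 of 27 (14.8%) within 0.5 Mb. It was 1 of 15 from 0.5 to 1 Mb and 4 of 25 (16%) from 1 to 2 Mb, against 14.6% of 14396 genes on other chromosomes. Farther out, 6 of 19 genes (31.6%) from 2 to 5 Mb and 9 of 30 (30.0%) from 5 to 10 Mb were under the threshold, 7 of the 15 with a positive and 8 with a negative log2 fold change, and 19 of 103 (18.4%) from 10 to 20 Mb and 131 of 1011 (12.96%) over 20 Mb. The bins of 0.5 to 1 Mb in both fractions and of 2 to 5 Mb in the immune fraction hold fewer than 20 genes, and no test of these shares was made.

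**Figure D4:**
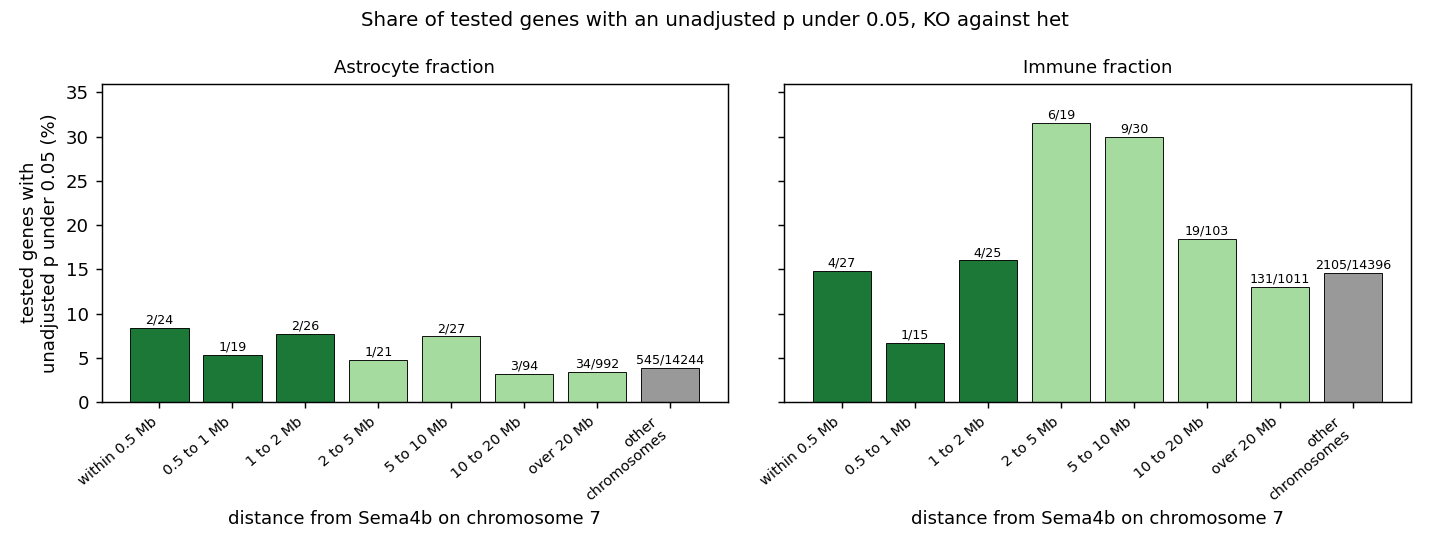
Percentage of tested genes with an unadjusted edgeR p under 0.05 between knockout and heterozygote (vertical axis, from 0) by distance from Sema4b on chromosome 7 and on other chromosomes (horizontal axis), for the astrocyte (left) and immune (right) fractions. Dark bars lie within 2 Mb of Sema4b, and labels over the bars give genes under 0.05 over genes tested; within 0.5 Mb the share is 8.33% in astrocytes and 14.8% in immune libraries, against 3.83% and 14.6% on other chromosomes.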

How the data were processed

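RNA-seq counts from 12 libraries were analysed, 3 for each combination of fraction and genotype. Per the file headers, the 2 deposited tables (1 per fraction, 20776 genes each) hold raw counts, the authors' log2 fold changes, p-values and adjusted p-values, and a score that is the highest raw count of a gene. Per the submitters' processing notes, the tools were cutadapt, STAR, HTSeq and DESeq2 with build GRCm38; versions, annotation and strandedness are not given in the sources used here. The 12 deposited normalized-count columns were not used. Title numbers and column numbers differ, so columns were assigned to groups only. Nothing in the labels states that replicate libraries are separate mice, and p-values therefore cover the spread among libraries, which may be technical.

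Counts were fitted with edgeR 4.0.16 in R 4.3.3 (TMM, filterByExpr with count minimum 10 and total minimum 15, robust quasi-likelihood F test, two-sided, Benjamini-Hochberg over all genes tested), with 6 libraries per fraction, and with all 12 libraries for differences between fractions. SE is the absolute log2 fold change over the square root of F. The code was tested on simulated counts with the spread of these data, in which 100 genes above a set mean count were changed at each fold. At an adjusted p under 0.05, 2-fold changes were recovered for 32% of such genes in the immune fraction and 70% in astrocytes. For 4-fold changes it was 90% and 97%. A 2-fold difference of a neighbour could thus be missed, above all in the immune fraction. Over the 12 pairs of libraries within groups, chi-square averaged 10.9 to 79.9 per gene, and no pair agreed within sampling noise. Positions and exon lengths come from GENCODE M21 (GRCm38), which held 20740 of the identifiers, and start windows from RefSeq, where 35 of the 38 neighbours were found. Floors of 3 reads cover counting error only.

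Genes named in full were Sema4b, neighbours with an unadjusted p under 0.05, the 4 nearest on each side, the 6 in each direction with the largest mean fraction difference over both genotypes among those past the adjusted threshold in both, and at most 5 other genes of the interval per fraction. The neighbours and marker lists were chosen with earlier results of these data known. Alternatives were RLE scaling, DESeq2 1.42.0, limma-voom (limma 3.58.1), no count filter, 1 fit of all 12 libraries, and leaving out each library.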

Additional observations from a re-analysis of the deposited data

How the results depend on the processing

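No paired analysis was possible because neither the titles nor the column heads share a number between groups. The count of 0 neighbours past the adjusted threshold between genotypes held under every alternative run except DESeq2 in the immune fraction, which called 1 (Zfp710). With 1 fit of all 12 libraries the counts at an unadjusted p under 0.05 were 1 of 34 in astrocytes (3 by fraction), against 1.68% of all genes, and 7 of 34 in immune libraries (4 by fraction), against 20.2% of all genes. Leaving out each library gave 1 to 5 in astrocytes (5 without library 10, 1 without library 2), 2 to 4 in immune libraries (2 without library 7, 1 or 5) and 0 to 6 for the difference between fractions (0 without library 12, 6 without library 11). The neighbours called between fractions numbered 18 to 24 in knockouts and 17 to 23 in heterozygotes. The share of all genes was not counted in the fits with a library left out. These ranges therefore do not say whether the neighbours differed from other genes.

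Estimates near 0 changed sign. Idh2 in astrocytes was -0.0040 with RLE scaling, -0.0040 with DESeq2, -0.0045 with limma-voom and -0.0014 in the fit of 12 libraries, and Ap3s2 in immune libraries was -0.038 in the last of these. With single libraries left out, the astrocyte log2 fold changes ranged from -0.16 to 0.072 for Idh2, -0.0072 to 0.052 for Ap3s2, -0.0046 to 0.093 for Ngrn, -0.075 to 0.42 for Fes and -0.39 to 0.070 for Gdpgp1. The immune ones ranged from -0.28 to 0.17 for Mrps11, -0.14 to 0.16 for Ap3s2, -0.14 to 0.30 for Ngrn and -0.22 to 0.51 for Ttll13. Differences between fractions ranged from -0.39 to 0.22 for Hddc3 and -0.22 to 0.15 for Iqgap1. The astrocyte over immune difference of Isg20 in knockouts was -0.93 with limma-voom and missed the adjusted threshold. Causes were not tested. With 3 libraries a group, differences between genotypes could be missed, as they were in the simulated counts described above. The intervals given describe the precision of the estimates and are not limits of detection.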

Other observations

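The neighbours whose levels followed Sema4b most closely over the 12 libraries were Cib1 and Crtc3 (Spearman's rho 0.93 each), Idh2 (0.92), Abhd2 (0.83) and Kif7 (0.81). This is a description over libraries that share 2 fractions, and Sema4b and these 5 genes were all higher in astrocyte libraries. Within the 6 astrocyte libraries the values were 0.60 for Cib1, 0.77 for Crtc3, 0.49 for Idh2, 0.66 for Abhd2 and 0.09 for Kif7. Within the 6 immune libraries they were 0.83 for Cib1, 0.66 for Crtc3, 0.89 for Idh2, -0.03 for Abhd2 and 0.37 for Kif7. Other neighbours had the highest values within a single fraction. These were Vps33b (rho 1) and Blm (0.94) in immune libraries and Furin (0.83) in astrocyte libraries. Hddc3 ran the other way within both fractions (-0.77 in astrocyte and -0.83 in immune libraries), where genotype separates the libraries for Sema4b. Values were also negative in both fractions for Arpin, Hapln3, Ngrn, Mrpl46, Mrps11, Mfge8 and Ttll13.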
